A study of Mus musculus with 15 samples.

Results

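Metallothioneins and the zinc response were examined through 4 genes, taken by symbol from a table of 10653 protein-coding genes: Mt1, Mt2, Mtf1 and Slc30a1. All 4 were present, each on 1 line of the table, and all 4 passed the filter on low values that left 10616 genes for testing. The cells were MPI cells, self-renewing female C57BL6/J mouse macrophages from fetal liver, kept in medium with serum and 30 ng/ml of the growth factor GM-CSF, and RNA was taken after 24 h. Untreated cells were compared with cells given 9 µg/cm2 of riebeckite asbestos, 40 µg/cm2 of riebeckite cleavage fragments, 5 µg/cm2 of tremolite asbestos or 60 µg/cm2 of tremolite cleavage fragments, with 3 libraries in each of the 5 groups. The doses were matched by surface area and so differed in mass. The labels call the control cells untreated in the titles and mention a vehicle control in the descriptions, and all groups came from the same cell line, strain and culture medium.

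Levels were given as FPKM (fragments per kilobase of exon, scaled to the mapped fragments of a library), whose read depth is unknown. Summed FPKM lay between 257329 and 273570 per library, libraries of a group agreed across genes with Spearman's rho from 0.988 to 0.992, and 0 pairs were identical. Nothing in the labels ties the 3 libraries of a group to separate cultures, so every p-value reflects variation among these libraries, which may be technical. All 7 listed macrophage markers and all 7 alveolar macrophage markers were in the table. Of the markers of cells that a fetal liver culture could also hold, 0 of 7 erythroid, 0 of 7 fibroblast and 1 of 7 hepatocyte markers (Trf, also made by macrophages) were present.

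Metallothioneins are small cysteine-rich proteins that bind zinc, copper and cadmium in the cytosol and scavenge oxidants. In mice, Mt1 and Mt2 are the widely expressed members, lie next to each other, and are induced by zinc, cadmium, glucocorticoids and oxidative stress. MTF1 is the zinc-finger transcription factor that senses free zinc and binds metal response elements (MREs) in their promoters. It also drives Slc30a1, which encodes ZnT1, the zinc exporter of the plasma membrane, so that zinc-exposed cells commonly raise Mt1, Mt2 and Slc30a1 together. Riebeckite is a sodium and iron amphibole, and tremolite is a calcium and magnesium amphibole.

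In the GRCm38 annotation (GENCODE M21), whose positions were those of the deposited table, all 4 genes lie on the plus strand. Mt1 (ENSMUSG00000031765.8) occupies chr8:94179082-94180327 and Mt2 (ENSMUSG00000031762.7) chr8:94172664-94173568, with 5513 bases between them. Mtf1 (ENSMUSG00000028890.13) occupies chr4:124802104-124849800 and Slc30a1 (ENSMUSG00000037434.7) chr1:191906767-191913247. The main transcripts Mt1-201 and Mt2-201 have 3 exons each, Mtf1-201 has 11 and Slc30a1-201 has 2. The promoters of the 3 genes with MRE matches are shown because the pair of metallothionein genes moved together while Slc30a1 was not called. They are the 250 bases before the RefSeq start in GRCm38.p6, written 5′ to 3′ on the plus strand, at chr8:94178839-94179088, chr8:94172368-94172617 and chr1:191906531-191906780. Capitals mark matches to the MRE core, searched as TGCACNC or TGCGCNC on both strands, so that a match on the minus strand reads as its reverse complement.
Mt1: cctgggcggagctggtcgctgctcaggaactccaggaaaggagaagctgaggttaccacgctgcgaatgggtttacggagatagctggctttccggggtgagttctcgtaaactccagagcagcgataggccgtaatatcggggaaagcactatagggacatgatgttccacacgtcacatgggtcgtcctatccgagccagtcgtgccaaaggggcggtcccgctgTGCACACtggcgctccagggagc
Mt2: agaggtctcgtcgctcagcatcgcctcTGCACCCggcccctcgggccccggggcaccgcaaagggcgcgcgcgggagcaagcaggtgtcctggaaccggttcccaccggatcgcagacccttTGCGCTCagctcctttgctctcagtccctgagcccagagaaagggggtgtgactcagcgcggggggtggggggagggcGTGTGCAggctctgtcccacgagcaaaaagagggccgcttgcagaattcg
Slc30a1: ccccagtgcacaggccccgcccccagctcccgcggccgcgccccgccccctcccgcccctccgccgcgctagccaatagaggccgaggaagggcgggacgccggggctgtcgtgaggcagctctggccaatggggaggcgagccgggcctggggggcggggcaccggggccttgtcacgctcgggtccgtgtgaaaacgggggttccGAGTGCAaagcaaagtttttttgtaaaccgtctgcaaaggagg

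Over the whole RefSeq window of 300 bases, which runs on for 50 bases past the start, Mt2 held 4 MRE matches, Mt1 held 3 and Slc30a1 held 2. Of 32851 mouse promoter windows of that length, 25.7% held at least 1 match, 7.11% at least 2, 1.97% at least 3 and 0.517% at least 4. The matches past the start were TGCACTC at positions 3 to 9 and TGCGCTC at positions 21 to 27 in Mt1, GTGCGCA at positions 5 to 11 in Mt2, and GAGCGCA at positions 31 to 37 in Slc30a1, counted from 1 at the RefSeq start. The antioxidant response element core, searched as TGACNNNGC on both strands and found in 12.4% of windows, matched once in Mt2 and once in Slc30a1. Both of those matches lie upstream of the start and overlap no MRE match. The Mtf1 window, chr4:124802299-124802598, held 0 matches to either motif. The RefSeq starts of Mt1, Mtf1 and Slc30a1 lie inside the genes as annotated by GENCODE, and that of Mt2 lies before its gene. The RefSeq start of Mtf1 is the first base of Mtf1-201. The counts depend on the RefSeq start used, and bases beyond a window were not searched. The Mt1 window ends at 94179138, while the transcripts Mt1-203 and Mt1-202 begin further on, at 94179211 and 94179241. A match is a run of letters and not a measured binding site.

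Mt1 and Mt2 were higher after all 4 particle treatments than in untreated cells. The rise was largest after riebeckite fragments, where the mean level was 2.02 times that of untreated cells for Mt1 and 2.35 times for Mt2. Mtf1, the sensor, and Slc30a1, the exporter, were not called in any comparison. The share of all tested genes called higher against untreated cells was 21.0% after riebeckite asbestos, 15.3% after riebeckite fragments, 10.0% after tremolite asbestos and 12.5% after tremolite fragments, and in each of these comparisons 2 of the 4 genes were called higher and 0 lower. Called lower were 24.3, 23.1 and 13.9% of all genes after the first 3 of these treatments and 1592 of 10616 genes after tremolite fragments. In either direction, 45.3, 38.4, 23.9 and 27.5% of all genes were called in the same order. Calls are those with an adjusted p under 0.05 from limma, a linear model fitted across all genes, on log2(FPKM + 1). This scale understates the fold change of genes with low levels such as Mtf1 and Slc30a1. All 4 comparisons share the same 3 untreated libraries. In bulk RNA, fewer cells with a transcript and less of it per cell cannot be told apart.

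Mt1 stood at 169, 161 and 162 FPKM in the 3 untreated libraries. It stood at 251, 255 and 273 FPKM after riebeckite asbestos and at 360, 339 and 295 FPKM after riebeckite fragments. It stood at 221, 200 and 221 FPKM after tremolite asbestos and at 256, 234 and 250 FPKM after tremolite fragments. All 12 treated libraries lay above all untreated ones, and the lowest of the treated was a tremolite asbestos library. Over all genes, values above the untreated range in every treated library were found for 25.7% after riebeckite asbestos, 19.2% after riebeckite fragments, 15.9% after tremolite asbestos and 19.6% after tremolite fragments. The differences on the log2 scale were 0.66 (SE 0.0662, limma adjusted p = 3.39e-06) for riebeckite asbestos and 1.01 (adjusted p = 8.41e-08) for riebeckite fragments. For tremolite they were 0.38 (limma adjusted p = 0.00106) after asbestos and 0.58 (adjusted p = 2.22e-05) after fragments.

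Mt2 stood at 195, 191 and 188 FPKM in untreated cells. Its levels were 343, 333 and 354 FPKM after riebeckite asbestos, and 503, 445 and 399 FPKM after riebeckite fragments. They were 294, 250 and 264 FPKM after tremolite asbestos, and 320, 304 and 324 FPKM after tremolite fragments. Again no treated library reached down to the untreated range, and the riebeckite fragment libraries spread most widely (449 ± 52.0 FPKM, SD, n = 3). The differences were 0.84 (SE 0.0724, limma adjusted p = 7.72e-07) for riebeckite asbestos and 1.22 (adjusted p = 3.38e-08) for riebeckite fragments. They were 0.49 (limma adjusted p = 0.000292) for tremolite asbestos and 0.72 (adjusted p = 7.55e-06) for tremolite fragments.

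These rises stood high among all genes. After riebeckite fragments 98.74% of tested genes had a lower log2 difference than Mt1 and 99.28% a lower one than Mt2. After tremolite asbestos, the treatment with the smallest rise, the percentages were 94.88 for Mt1 and 96.61 for Mt2. The median difference over all genes tested lay between -0.04 and -0.02 in the 4 comparisons. In rank by FPKM, Mt2 moved from places 140 to 144 among the 10653 genes in untreated libraries to places 50 to 58 after riebeckite fragments, and Mt1 from places 184 to 193 to places 77 to 87. Together the genes made up 0.137% of summed FPKM in untreated cells, 0.229% after riebeckite asbestos, 0.291% after riebeckite fragments, 0.184% after tremolite asbestos and 0.215% after tremolite fragments.

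**Figure D1:**
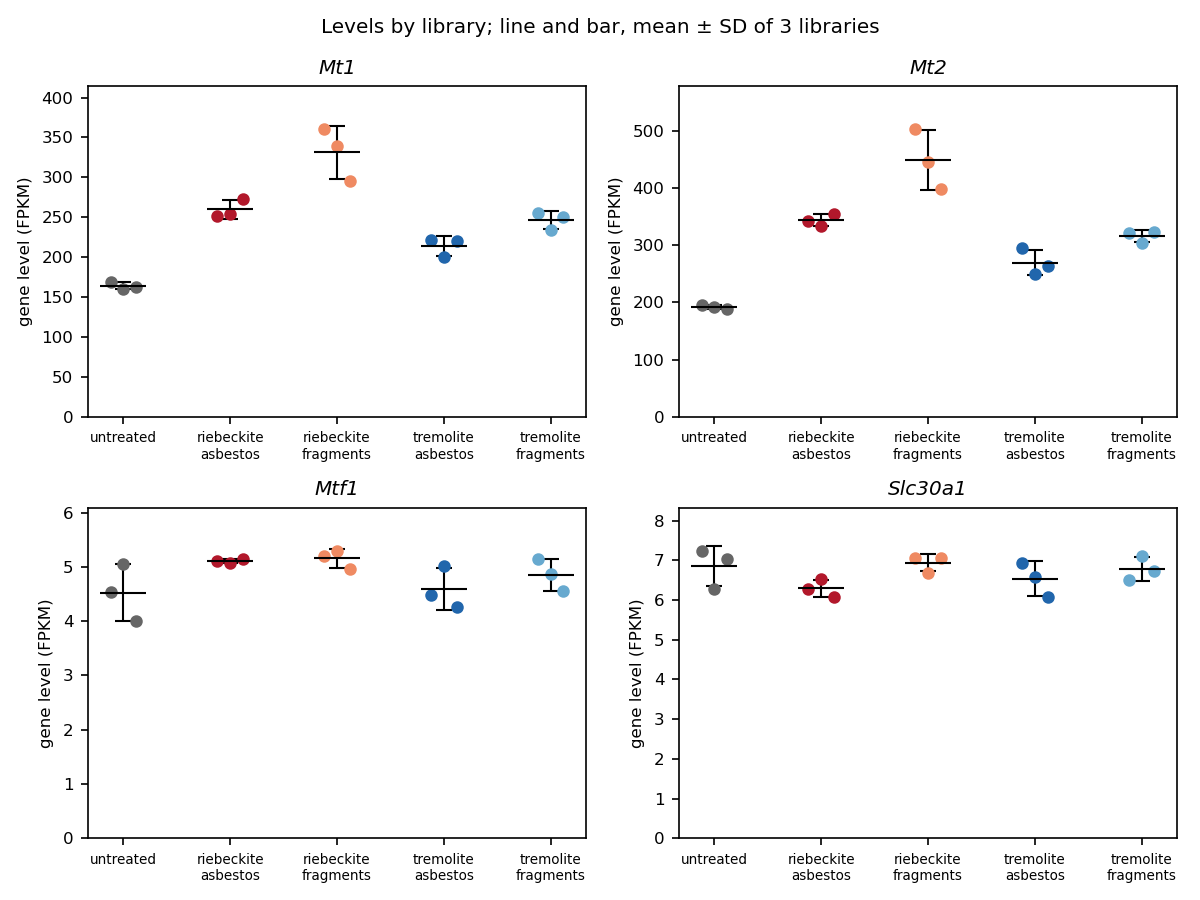
Gene level in FPKM on a linear axis from 0 for Mt1, Mt2, Mtf1 and Slc30a1 in the 5 groups; each point is 1 library, and the line and bar are the mean and SD of 3 libraries. Mt1 and Mt2 lie above the untreated range in all 12 treated libraries, from 200 FPKM for Mt1 and 250 FPKM for Mt2 upward, while treated Slc30a1 libraries stay between 6.07 and 7.12 FPKM.

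The order of the group means was the same for both metallothionein genes: untreated, tremolite asbestos, tremolite fragments, riebeckite asbestos, riebeckite fragments. Between the middle neighbours, tremolite fragments and riebeckite asbestos, the Mt1 libraries overlapped, at 234 to 256 against 251 to 273 FPKM. The Mt2 libraries of those groups did not overlap, at 304 to 324 against 333 to 354 FPKM. That pair of groups differs in mineral, shape and mass dose and was not tested.

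Within riebeckite, levels of both metallothionein genes were lower after asbestos than after the fragments. The mass dose of asbestos was also the lower one, and the part of mass in this difference was not tested. Mt1 was lower by 0.35 on the log2 scale (difference -0.35, SE 0.0662, limma adjusted p = 0.00626) and Mt2 by 0.38 (difference -0.38, SE 0.0724, adjusted p = 0.00626), in a comparison where 3.85% of all genes were called lower. The libraries of the 2 groups did not overlap for either gene, which held for 11.0% of all genes in this direction. With only these 2 groups in the fit the adjusted p rose to 0.0658 for Mt1 and 0.0614 for Mt2, with differences of -0.35 and -0.38, so these calls rest on the spread estimated from all 15 libraries.

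Within tremolite the direction was the same but the calls were not made. Here too the mass dose of asbestos was the lower one, and the part of mass was not tested. Mt1 differed by -0.21 (95% confidence interval -0.35 to -0.06, limma adjusted p = 0.226) and Mt2 by -0.23 (-0.39 to -0.07, adjusted p = 0.206), although the libraries of the groups did not overlap for either gene. Lower values without overlap were found for 9.98% of all genes in this comparison, and 0.556% of genes were called lower. After quantile normalization Mt2 passed the threshold, with a difference of -0.25 (adjusted p = 0.0433). The test of whether the asbestos to fragment difference itself differed between the minerals, which called 3.93% of all genes, gave -0.14 for Mt1 (95% confidence interval -0.34 to 0.06, limma adjusted p = 0.459) and -0.15 for Mt2 (adjusted p = 0.485).

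Between minerals of the same shape, riebeckite gave the higher levels. Asbestos of riebeckite stood above asbestos of tremolite by 0.28 for Mt1 (limma adjusted p = 0.00743) and 0.35 for Mt2 (adjusted p = 0.0033), where 15.5% of all genes were called higher. Fragments of riebeckite stood above fragments of tremolite by 0.42 for Mt1 (limma adjusted p = 0.00129) and 0.50 for Mt2 (adjusted p = 0.000735), where 5.31% of all genes were called higher. In these comparisons too the libraries of the groups did not overlap for Mt1 or Mt2, which held in this direction for 23.3% of all genes between the asbestos forms and 13.4% between the fragments. Mass doses differed in each of them, at 9 against 5 µg/cm2 for asbestos and 40 against 60 µg/cm2 for fragments.

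**Figure D2:**
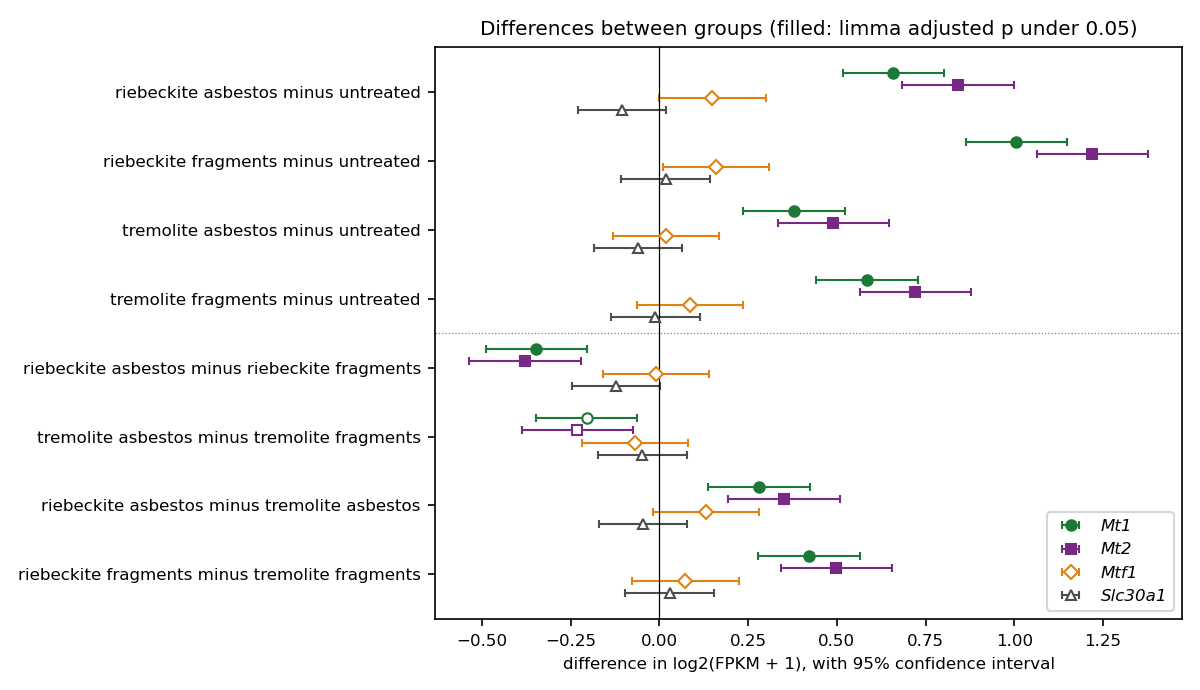
Differences between groups in log2(FPKM + 1) with 95% confidence intervals for the 4 genes, the comparisons with untreated cells above the dotted line and those between particles below it; filled symbols passed a limma adjusted p of 0.05. Mt1 and Mt2 are filled in 7 of 8 comparisons, all but tremolite asbestos against tremolite fragments, and Mtf1 and Slc30a1 are open in all 8.

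Mt2 rose more than Mt1, so the ratio of the genes shifted. The ratio of Mt1 to Mt2 in gene FPKM was 0.858 ± 0.0156 (SD, n = 3) in untreated cells. It was 0.756 ± 0.0202 after riebeckite asbestos, 0.740 ± 0.0222 after riebeckite fragments, 0.795 ± 0.0423 after tremolite asbestos and 0.780 ± 0.0156 after tremolite fragments. Every untreated library (0.8398 to 0.8689) lay above every treated one, the highest of which was a tremolite asbestos library at 0.835. An exact 2-sided permutation test of the log2 ratio gave p = 0.1 in each of the 4 comparisons, the smallest p that 3 libraries against 3 allow, and 0.1 after adjustment over the 4. The longest run of identical bases shared by Mt1-201 and Mt2-201 was 20 bases, and they shared 0 words of 25 bases, so a read longer than that could match only 1 of them exactly.

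Which of the genes appears more abundant depends on the length the FPKM are divided by. The gene values correspond to all exon bases of a gene, 1246 for Mt1 and 588 for Mt2, while the main transcripts Mt1-201 and Mt2-201 span 549 and 511. Per transcript, Mt1-201 was therefore the higher, with a ratio to Mt2-201 of 1.62 to 1.69 in untreated libraries and 1.39 to 1.54 in treated ones. Mt1-201 stood at 363 ± 11.5 FPKM (SD, n = 3) in untreated cells and at 732 ± 76.6 FPKM after riebeckite fragments. Mt2-201 stood at 219 ± 3.88 and 513 ± 59.4 FPKM in those groups.

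Both main transcripts rose after every treatment in a test of 22038 transcripts, of which 13.0% were called in either direction after riebeckite asbestos, 10.3% after riebeckite fragments, 5.02% after tremolite asbestos and 6.29% after tremolite fragments. The differences were 0.66, 1.01, 0.35 and 0.58 for Mt1-201 in that order of treatments, with the largest limma adjusted p, 0.0107, after tremolite asbestos. They were 0.84, 1.22, 0.49 and 0.72 for Mt2-201, with the largest adjusted p, 0.00195, after tremolite asbestos. The minor transcript Mt1-202 rose in all 4, from 3.996 FPKM in untreated cells to 6.43 after riebeckite asbestos, 8.19 after riebeckite fragments, 6.43 after tremolite asbestos and 6.90 after tremolite fragments. Mt2-202, at 1.90 FPKM in untreated cells, was called higher after riebeckite asbestos (3.79 FPKM, limma adjusted p = 0.0191) and riebeckite fragments (4.78 FPKM, adjusted p = 0.00296). It was not called after tremolite asbestos (2.51 FPKM, limma adjusted p = 0.53) or tremolite fragments (3.57 FPKM, adjusted p = 0.0567). Mt1-203 lay between 1.23 and 4.27 FPKM in 14 libraries and at 19.1 FPKM in tremolite asbestos library 3, and it was not called in any comparison.

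**Figure D3:**
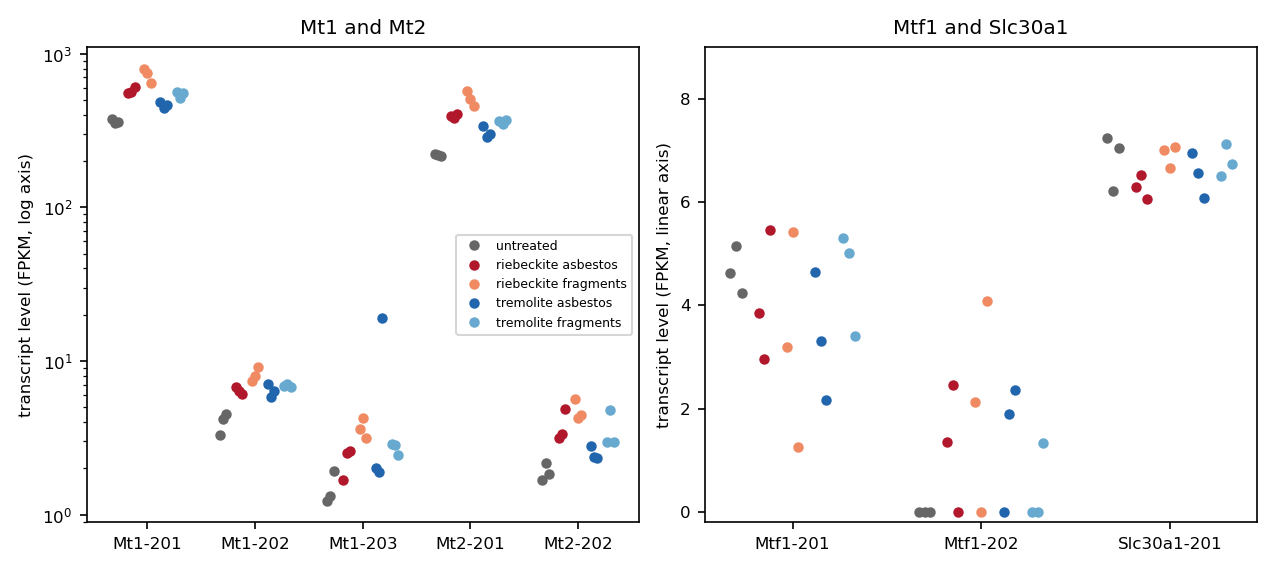
Transcript level in FPKM by library for the transcripts of Mt1 and Mt2 on a log axis (left) and of Mtf1 and Slc30a1 on a linear axis (right). Mt1-201 and Mt2-201 carry nearly all of the metallothionein signal, 1 tremolite asbestos library stands apart for Mt1-203 at 19.1 FPKM, and Mtf1-202 is listed at 0 in all 3 untreated libraries.

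Mtf1 was expressed at a low level in all groups, at ranks 6411 to 7295 among the 10653 genes. The untreated libraries held 4.53, 5.05 and 4.004 FPKM. Those of riebeckite asbestos held 5.12, 5.07 and 5.15 FPKM, and those of riebeckite fragments 5.20, 5.30 and 4.97 FPKM. Those of tremolite asbestos held 4.49, 5.02 and 4.26 FPKM, and those of tremolite fragments 5.15, 4.87 and 4.55 FPKM. Every riebeckite asbestos library lay just above the highest untreated one, which held for 25.7% of all genes in that comparison. In the other 3 treatments the Mtf1 libraries overlapped with the untreated range. The differences from untreated cells were 0.15 (95% confidence interval -0.0008 to 0.299, limma adjusted p = 0.0982) and 0.16 (adjusted p = 0.0877) for riebeckite asbestos and fragments, and 0.02 (adjusted p = 0.883) and 0.09 (adjusted p = 0.401) for tremolite.

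The Mtf1 calls after the riebeckite forms depended on untreated library 2, the highest of its group, and after riebeckite fragments also on the scaling and the model. Without untreated library 2, Mtf1 was called higher after riebeckite asbestos (0.22, limma adjusted p = 0.0244) and after riebeckite fragments (0.23, adjusted p = 0.0232). The riebeckite fragment difference also passed with TMM rescaling (0.20, limma adjusted p = 0.0384) and quantile normalization (0.18, adjusted p = 0.0461). Of its transcripts, Mtf1-201 varied from 1.25 to 5.46 FPKM and Mtf1-202 was listed at 0 in 8 of 15 libraries, including all untreated ones, and neither was called. A value of 0 in these files can be a failed estimate.

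Slc30a1 stood at 7.25, 6.28 and 7.04 FPKM in untreated cells. It stood at 6.29, 6.52 and 6.07 FPKM after riebeckite asbestos and at 7.07, 6.69 and 7.07 FPKM after riebeckite fragments. It stood at 6.94, 6.59 and 6.07 FPKM after tremolite asbestos and at 6.51, 7.12 and 6.73 FPKM after tremolite fragments. All 4 treated groups overlapped with the untreated range. The differences were -0.11 (95% confidence interval -0.23 to 0.02, limma adjusted p = 0.155) and 0.02 (-0.11 to 0.14, adjusted p = 0.844) for riebeckite asbestos and fragments. They were -0.06 (-0.18 to 0.06, limma adjusted p = 0.505) and -0.01 (-0.14 to 0.11, adjusted p = 0.91) for tremolite asbestos and fragments.

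The highest upper bound of these intervals was 0.14 on the log2 scale, and the smallest metallothionein difference from untreated cells was 0.38. That bound is not adjusted for the number of genes tested and reflects variation among libraries, which may be technical. The scale also understates changes of genes with low levels such as Slc30a1, so a larger rise of the exporter is not excluded. Riebeckite asbestos libraries lay below those of riebeckite fragments without overlap, with a difference of -0.12 (limma adjusted p = 0.202), and 11.0% of all genes lay lower without overlap in that comparison. Without untreated library 2, the lowest of its group for Slc30a1, the gene was called lower after riebeckite asbestos (-0.16, adjusted p = 0.0448). Slc30a1 also varied less than most genes within groups, with a pooled SD of 0.0676 on the log2 scale against a median of 0.0812 over all genes.

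Across the 15 libraries, Mt1 and Mt2 followed each other with Pearson's r = 0.994 and Spearman's rho = 0.971. Mtf1 followed them with r = 0.60 for Mt1 and r = 0.62 for Mt2, whereas Slc30a1 gave r = -0.01 with Mt1, 0.00 with Mt2 and -0.23 with Mtf1. These values describe libraries that share their groups and controls. Among 9580 genes searched, the pattern most like Mt1 after Mt2 was that of Spag11b (r = 0.978), a secreted beta-defensin-type protein, and then of Itgax (r = 0.967), the integrin CD11c of alveolar macrophages. The pattern most like Mt2 after Mt1 was that of Spag11b (r = 0.9747) and Wfdc21 (r = 0.9745), a gene of the whey acidic protein family. Spag11b rose from 129 ± 8.27 FPKM in untreated cells to 206 ± 7.59 after riebeckite asbestos, 287 ± 5.22 after riebeckite fragments, 174 ± 2.94 after tremolite asbestos and 207 ± 2.86 after tremolite fragments (SD, n = 3). The genes nearest to Mtf1 were Rptor (r = 0.848), Ficd (r = 0.818) and Cables2 (r = 0.810), and those nearest to Slc30a1 were Rfk (r = 0.814), Stx6 (r = 0.781) and Igip (r = 0.776).

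Among the zinc exporters of the ZnT family, 5 of 10 were tested. After riebeckite asbestos 1 rose and 0 fell, after either riebeckite fragments or tremolite asbestos 0 were called, and after tremolite fragments 1 rose and 1 fell. Of all genes, 21.0% rose after riebeckite asbestos, and 12.5% rose and 1592 of 10616 fell after tremolite fragments. The medians were -0.06, 0.02, -0.05 and -0.02 in the order riebeckite asbestos, riebeckite fragments, tremolite asbestos, tremolite fragments, beside medians of -0.02, -0.04, -0.03 and -0.02 over all genes. Slc30a6 rose after riebeckite asbestos (0.27, limma adjusted p = 0.00392) and after tremolite fragments (0.18, adjusted p = 0.0473), the latter call being lost on omission of any of 12 libraries (0.09, adjusted p = 0.155 without untreated library 3) and on sums of transcripts (adjusted p = 0.0844). Slc30a5 fell after tremolite fragments (-0.44, limma adjusted p = 0.0138), and that call was lost without tremolite fragment library 1 (-0.40, adjusted p = 0.0555) or library 3 (-0.36, adjusted p = 0.0612).

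Among the zinc importers of the ZIP family, 11 of 14 were tested, and 2 of them changed in every treatment, in opposite directions. After riebeckite asbestos 5 rose and 1 fell, and in each of the other 3 comparisons 1 rose and 2 fell. Over all genes, 21.0% rose and 24.3% fell after riebeckite asbestos, and 10.0 to 15.3% rose in the others. In those, 23.1% fell after riebeckite fragments, 13.9% after tremolite asbestos and 1592 of 10616 genes after tremolite fragments. Slc39a2, the importer ZIP2, stood at 24.7, 22.3 and 21.2 FPKM in untreated cells and at 65.7, 60.3 and 60.7 FPKM after riebeckite asbestos. It rose by 1.42 after riebeckite asbestos (limma adjusted p = 1.1e-09), 1.20 after riebeckite fragments (7.75e-09), 1.00 after tremolite asbestos (1.21e-07) and 0.94 after tremolite fragments (1.47e-07). Its order of treatments thus differed from that of the metallothioneins, with asbestos above fragments in riebeckite (0.22, limma adjusted p = 0.0374).

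Slc39a10, the importer ZIP10, which MTF1 is known to repress when zinc is high, was lower after all 4 particles. It stood at 4.41, 3.94 and 4.32 FPKM in untreated cells, and at 1.89, 1.4998 and 1.80 FPKM after riebeckite fragments. It fell by 0.61 after riebeckite asbestos (limma adjusted p = 2.76e-06), 0.94 after riebeckite fragments (6.62e-08), 0.49 after tremolite asbestos (6.36e-05) and 0.62 after tremolite fragments (5.34e-06). The fall was deeper after riebeckite fragments than after riebeckite asbestos (asbestos minus fragments 0.33, limma adjusted p = 0.00511) and than after tremolite fragments (-0.32, adjusted p = 0.00467). The mean level was thus lowest in the group where Mt1 and Mt2 were highest, and neither RefSeq window of Slc39a10 held an MRE match.

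The other calls in the ZIP family were smaller. After riebeckite asbestos, Slc39a7, the importer of the endoplasmic reticulum and Golgi, rose by 0.24 (limma adjusted p = 0.000809) and Slc39a1 by 0.17 (adjusted p = 0.00301). The Slc39a7 call was not made on sums of transcript values (limma adjusted p = 0.163). Slc39a11, also counted among the rises after riebeckite asbestos, was not called on those sums either (limma adjusted p = 0.0785). Its call was also lost without untreated library 3 (adjusted p = 0.0701) or riebeckite asbestos library 1 (0.0555). Slc39a6 fell by 0.24 after riebeckite fragments (limma adjusted p = 0.000433), 0.16 after tremolite asbestos (0.0112) and 0.21 after tremolite fragments (0.00194). The tremolite asbestos call was lost without untreated library 3 (-0.14, limma adjusted p = 0.0521) or tremolite asbestos library 3 (-0.13, adjusted p = 0.0523).

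Other genes reported as MTF1 targets included some that rose and some that fell. Of 7 tested, 2 rose and 3 fell after riebeckite asbestos, 2 rose and 3 fell after riebeckite fragments, 1 rose and 3 fell after tremolite asbestos, and 1 rose and 4 fell after tremolite fragments. Shares over all genes were 21.0% higher and 24.3% lower after riebeckite asbestos, 15.3 and 23.1% after riebeckite fragments, and 10.0 and 13.9% after tremolite asbestos. After tremolite fragments 12.5% of all genes rose and 1592 of 10616 fell. Pgf, which encodes placental growth factor, rose by 1.05, 0.94, 0.45 and 0.62 in that order (largest limma adjusted p = 0.00513). Ndrg1, a stress-responsive gene also listed under hypoxia, fell by 1.12, 0.77, 0.57 and 0.68 (largest adjusted p = 0.00011). Slc40a1, which encodes the iron exporter ferroportin, fell by 0.87, 0.48, 0.64 and 0.56 (largest adjusted p = 2.45e-05). The remaining fall in each was that of Slc39a10, with Csrp1 as well after tremolite fragments (-0.16, limma adjusted p = 0.00805). The remaining rise was that of Selenow, chosen after its values were seen, at 0.45 after riebeckite asbestos (limma adjusted p = 0.00447) and 0.39 after riebeckite fragments (adjusted p = 0.0122), the latter lost without riebeckite fragment library 1 (0.33, adjusted p = 0.0542).

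**Figure D4:**
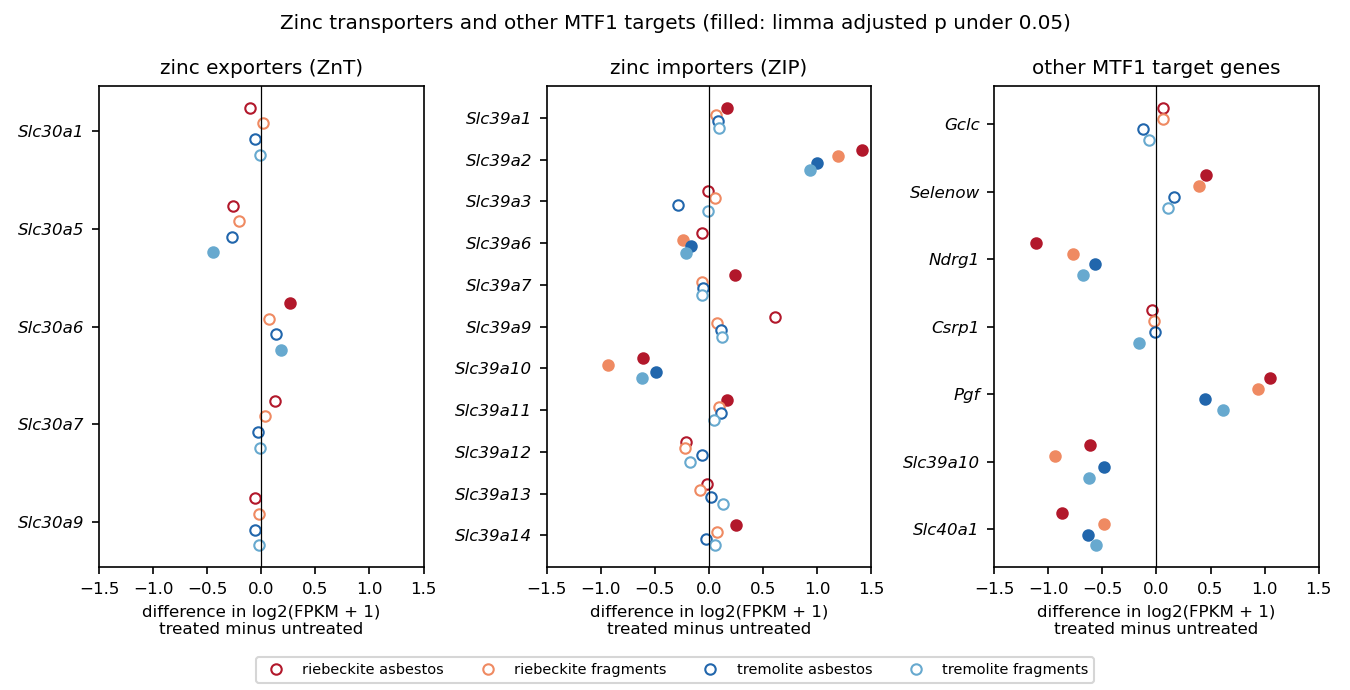
Difference from untreated cells in log2(FPKM + 1) for the tested zinc exporters, zinc importers and other genes reported as MTF1 targets, with 1 point per treatment; filled points passed a limma adjusted p of 0.05. Slc39a2 lies between 0.94 and 1.42 and Slc39a10 between -0.94 and -0.49, while Slc30a1 lies between -0.11 and 0.02 with every point open.

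Metallothioneins also bind copper, and 11 of 11 copper handling genes, Mt1 and Mt2 among them, were tested. Of these 8 rose and 1 fell after riebeckite asbestos, 7 rose and 1 fell after riebeckite fragments, and 4 rose and 0 fell after each tremolite form. The shares of all genes that rose were 21.0, 15.3, 10.0 and 12.5%, and 24.3 and 23.1% of all genes fell after the riebeckite forms. Among the rises after the riebeckite forms, that of Cox17 (riebeckite asbestos), that of Atox1 (riebeckite fragments) and both of Atp7b were each lost on omission of any of 2 or 3 libraries, the largest adjusted p being 0.116 for Atox1 without riebeckite fragment library 1. The copper importer Slc31a1 rose by 0.31, 0.19, 0.22 and 0.15 after riebeckite asbestos, riebeckite fragments, tremolite asbestos and tremolite fragments (largest limma adjusted p = 0.00368). Its relative Slc31a2 rose by 0.50, 0.38, 0.37 and 0.31 (largest adjusted p = 0.000184). The gene that fell was Atp7a, the copper-exporting ATPase, at -0.47 after riebeckite asbestos (limma adjusted p = 0.000151) and -0.41 after riebeckite fragments (adjusted p = 0.000627), and it was chosen after its values were seen. The median of the list was 0.24, 0.24, 0.02 and 0.04 in the same order, beside -0.02, -0.04, -0.03 and -0.02 over all genes.

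Genes of other inputs known to raise metallothioneins moved in part. Of 9 tested genes of the Nrf2 response to oxidants, 5 rose and 1 fell after riebeckite asbestos and again after riebeckite fragments, 3 rose and 0 fell after tremolite asbestos, and 5 rose and 0 fell after tremolite fragments. Of all genes, 21.0, 15.3, 10.0 and 12.5% rose, and 24.3 and 23.1% fell after the riebeckite forms. The median of this list was 0.47, 0.55, 0.19 and 0.38 in the usual order of treatments, beside -0.02, -0.04, -0.03 and -0.02 over all genes. The rises of Prdx1, counted after 3 of the treatments, were not called on sums of transcripts (limma adjusted p from 0.0913 to 0.29). Hmox1, which encodes heme oxygenase, rose by 1.25 after riebeckite asbestos, 1.09 after riebeckite fragments, 0.63 after tremolite asbestos and 1.05 after tremolite fragments (largest limma adjusted p = 1.09e-06). The cystine transporter gene Slc7a11 rose by 0.79, 0.55, 0.41 and 0.59 (largest adjusted p = 0.000176), and Srxn1, which encodes sulfiredoxin, by 1.05, 0.97, 0.64 and 0.78 (largest adjusted p = 0.0034). The gene that fell after the riebeckite forms was Nfe2l2, which encodes Nrf2 itself. Its mean was 68.1 FPKM in untreated cells and 61.7, 57.8, 69.7 and 68.1 FPKM in the usual order of treatments. The gene Gclc, listed under both MTF1 and Nrf2, was not called in any of the 4 comparisons.

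Of 7 tested genes of the glucocorticoid response, 3 rose and 2 fell after each riebeckite form, 3 rose and 0 fell after tremolite asbestos, and 4 rose and 0 fell after tremolite fragments. For comparison, 45.3 and 38.4% of all genes were called after the riebeckite forms, and 10.0 and 12.5% rose after the tremolite forms. The counts include Per1, whose rises after the riebeckite forms and tremolite asbestos were not called on sums of transcripts (limma adjusted p from 0.0521 to 0.0831), and Dusp1, whose rise after tremolite fragments was not either (adjusted p = 0.125). Sgk1, a kinase gene, rose by 1.57, 1.41, 1.43 and 1.49 in the same order (largest limma adjusted p = 1.14e-09). Fkbp5 rose by 0.26, 0.40, 0.17 and 0.36 (largest adjusted p = 0.0207), the tremolite asbestos call being lost without untreated library 2 (0.16, adjusted p = 0.0629), untreated library 3 (0.17, adjusted p = 0.0563) or tremolite asbestos library 1 (0.15, adjusted p = 0.0793). Tsc22d3, which encodes the glucocorticoid-induced leucine zipper protein, was not called, with differences of -0.10, 0.07, 0.15 and -0.27. The receptor gene itself, Nr3c1, fell after riebeckite asbestos (-0.29, limma adjusted p = 0.000572) and riebeckite fragments (-0.25, adjusted p = 0.00209), the latter not called on sums of transcripts (-0.23, adjusted p = 0.137). The other gene that fell after the riebeckite forms was Klf9. Its mean was 2.31 FPKM in untreated cells and 1.44, 1.44, 2.27 and 2.42 FPKM in the usual order of treatments.

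Of 7 tested genes of the heavy metal and heat shock response, 2 rose after riebeckite asbestos, 2 rose and 1 fell after riebeckite fragments, and 0 were called after either tremolite form. Of all genes, 21.0% rose after riebeckite asbestos, and 15.3% rose and 23.1% fell after riebeckite fragments. Hsph1 fell after riebeckite fragments (-0.32, limma adjusted p = 0.00136), and after riebeckite asbestos it differed by -0.16 (adjusted p = 0.0519), which passed with quantile normalization (adjusted p = 0.0458), on sums of transcripts (0.0175) and without untreated library 2 (0.0117) or riebeckite fragment library 1 (0.0447). Bag3 rose by 0.38 (limma adjusted p = 2.58e-05) and Dnajb1 by 0.16 (adjusted p = 0.0147) after riebeckite asbestos. Hspa1a (0.55, limma adjusted p = 0.000469) and Hspa1b (0.43, adjusted p = 0.00237) rose after riebeckite fragments, and as near-identical copies their separate values are uncertain. Of 7 tested genes of the hypoxia response, 3 rose and 1 fell after riebeckite asbestos, and 2 rose and 1 fell in each of the other 3 comparisons. The glucose transporter gene Slc2a1 rose by 0.76, 0.44, 0.56 and 0.61 in the usual order (largest limma adjusted p = 0.000607), and the gene that fell in each was Ndrg1. The other rises were less stable. Of all genes, 21.0, 15.3, 10.0 and 12.5% rose in the usual order. Those that fell were 24.3, 23.1 and 13.9% after the first 3 treatments and 1592 of 10616 genes after tremolite fragments. Ddit4 after riebeckite asbestos (0.26, limma adjusted p = 0.0452) was lost on omission of any of 11 libraries (adjusted p up to 0.181, without riebeckite asbestos library 2) and on sums of transcripts (0.0755). Hif1a rose after riebeckite asbestos (0.29, limma adjusted p = 0.000438), but its rise after riebeckite fragments (0.18, adjusted p = 0.0125) was lost without untreated library 1 (0.0559) or riebeckite fragment library 2 (0.0573) and on sums of transcripts (0.0611). Egln3 after tremolite asbestos (0.71, limma adjusted p = 0.0205) was lost without untreated library 1 (0.0645), untreated library 2 (0.0545) or tremolite asbestos library 1 (0.0866). Egln3 after tremolite fragments (0.69, limma adjusted p = 0.0209) was lost without untreated library 1 (0.0659), untreated library 2 (0.0536) or tremolite fragment library 1 (0.0822) or 2 (0.0698). The loss of Ddit4 takes the count of rises from 3 to 2, and each loss of Hif1a or Egln3 takes it from 2 to 1.

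Some cell markers changed in the same comparisons as the metallothioneins. The summed level of the 7 macrophage markers was 4852 to 5336 FPKM in untreated cells, 5766 to 6026 after riebeckite asbestos, 6055 to 6542 after riebeckite fragments, 4971 to 5682 after tremolite asbestos and 4872 to 5240 after tremolite fragments. Most of that sum was Lyz2, at a mean of 4066 FPKM in untreated cells, and single members moved in different ways. Mean Cd68 was 687 FPKM in untreated cells and 865, 902, 821 and 790 FPKM in the usual order of treatments. Mean Csf1r was 72.7 FPKM in untreated cells and 91.2, 73.8, 91.0 and 89.1 FPKM in that order. The group means of Mertk lay between 94.8 and 110 FPKM and those of Spi1 between 90.9 and 96.1 FPKM. Fcgr1 fell from 25.7 FPKM in untreated cells to 11.4, 12.2, 19.7 and 15.5 FPKM in the usual order (largest limma adjusted p = 0.0205), and Adgre1 from 70.3 to 61.0, 60.8, 62.9 and 58.6 FPKM (largest adjusted p = 0.00962). For the 7 alveolar macrophage markers the sum was 1772 to 1829 FPKM in untreated cells and 2129 to 2302 FPKM over all treated libraries. Most of that sum was Marco, at a mean of 1046 FPKM in untreated cells, and some members changed more than the sum. Mean Siglecf was 10.7 FPKM in untreated cells and 49.6, 55.4, 27.4 and 38.4 FPKM in the usual order. Mean Csf2rb was 130 FPKM in untreated cells and 292, 244, 245 and 262 FPKM in that order. The only neutrophil marker of 7 in the table, Cxcr2, rose from 2.45 to 2.61 FPKM in untreated libraries to 16.4 to 20.4 FPKM after riebeckite fragments, while Ly6g, Mpo, Elane, Ngp, Ltf and Camp were not among its genes. Of 6 epithelial markers 2 were in the table, with sums of 64.5 to 64.9 FPKM in untreated libraries and 54.2 to 68.5 FPKM in treated ones, and they moved in opposite directions. Krt19 rose from 11.3 FPKM to 30.1, 28.2, 23.6 and 28.2 FPKM (largest limma adjusted p = 3.02e-07), and Cdh1 fell from 53.3 to 25.7, 28.0, 35.6 and 35.0 FPKM (largest adjusted p = 1.94e-05). The hepatocyte marker Trf stood at 185 to 195 FPKM in untreated cells and 203 to 235 FPKM over the treated libraries. The part of these changes in the metallothionein result was not tested.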

How the data were processed

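RNA from 15 libraries of MPI macrophages was measured. Per the labels' protocols, oligo(dT) beads selected mRNA, and the second strand was made with dUTP. Per the submitters' processing notes, the tools were cutadapt, HISAT2 and StringTie, and the build GRCm38. For their versions and settings and for the annotation release, the sources used here give nothing. The authors deposited a gene table (10653 genes) and a transcript table. Their unit, read from the values, is FPKM, taken here as deposited. The highest group mean of each gene is at least 0.5003 FPKM, so genes below that in every group could not be examined; Mt3 and Mt4 are not in the table and were not analysed here. No counts were available, so no count test was run and no counting error is given.

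Groups came from the labels. The 10616 genes that reached 0.5 FPKM in 3 or more libraries entered 1 fit of log2(FPKM + 1) by group over the 15 libraries. The fit used limma 3.58.1 (lmFit, contrasts.fit and trended eBayes) and R 4.3.3. Within each comparison the Benjamini-Hochberg adjustment ran over all genes, and calls were made at 0.05. Transcripts were tested likewise. The Mt1 to Mt2 ratio was compared by an exact permutation test. The code was tested on simulated data. Named genes are the 4 genes, from each list the 4 called members of smallest p in a comparison (not all are printed), and for each of the 4 genes the 3 with the highest Pearson's r (mean of at least 1 FPKM). Other listed genes and the markers named were chosen after their values were seen. The 4 genes and the lists were chosen with earlier results of these data known. Promoters came from RefSeq (GRCm38.p6), in which 4 of 4 genes were found. Alternatives were TMM and quantile scaling, a pseudocount of 0.1, no filter, a mean of at least 5 FPKM, a replicate block, only the groups compared, no trend, sums of transcripts and omission of each library. Plots used matplotlib 3.10.9 in Python 3.11.15.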

Additional observations from a re-analysis of the deposited data

Results flagged for a closer look

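No value of Mt1, Mt2, Mtf1 or Slc30a1 differed between the minerals in its asbestos to fragment contrast at a limma adjusted p of 0.05. Of 58 other listed genes tested, 5 differed by that test, which called 3.93% of all genes, each given as asbestos minus fragments in riebeckite less the same in tremolite on the log2 scale. The zinc importer gene Slc39a7 gave 0.296 (limma adjusted p = 0.023). Ndrg1 gave -0.464 (limma adjusted p = 0.029). Tsc22d3, called in none of the comparisons with untreated cells, gave -0.583 (limma adjusted p = 0.0348). Hmox1 gave 0.566 (limma adjusted p = 0.00142). Slc7a11 gave 0.415 (limma adjusted p = 0.0158). No group had the 4 samples that a search for a single outlying library needs.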

How the results depend on the processing

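Against untreated cells, Mt1 and Mt2 kept their direction and call in 96 of 96 alternative values each. No difference of the 4 genes that passed the threshold in the main or the alternative fit changed its sign. Some small differences that passed in neither did change sign. Slc30a1 after riebeckite fragments was 0.02 and went as low as -0.04, and Mtf1 after tremolite asbestos was 0.02 and went as low as -0.05. Leaving out single libraries, Mtf1 ranged from 0.0796 to 0.2163 after riebeckite asbestos and from 0.08985 to 0.2266 after riebeckite fragments, and Slc30a1 from -0.1593 to -0.06972 after riebeckite asbestos; each passed the threshold only without untreated library 2 among these omissions. Mtf1 after riebeckite fragments also passed with TMM rescaling (0.196) and quantile normalization (0.184). With only the groups compared, riebeckite asbestos minus fragments no longer passed for Mt1 (-0.346) and Mt2 (-0.379), with fewer samples in the fit, and with quantile normalization tremolite asbestos minus fragments passed for Mt2 (-0.248). Where no smaller fit is named, the cause was not tested. Mtf1 gave no value at a mean of at least 5 FPKM, since it was filtered out. All 32 alternatives for the Mt1 to Mt2 ratio stayed within 1 SD.

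Replicate numbers were not shown to pair samples: 3 of 30 same-numbered pairs of libraries had correlated deviations over 0.1 (range -0.0613 to 0.172), and 8 of 15 libraries correlated best with their own number. With the replicate block, Mtf1 after riebeckite fragments passed (0.159, limma adjusted p = 0.0462), the calls of the other 3 genes did not change, and Slc30a6 after tremolite fragments (adjusted p = 0.0565) and Ddit4 after riebeckite asbestos (0.0505) lost their calls, while Hsph1 after riebeckite asbestos (0.0329) and Gclc after tremolite asbestos (0.03) were called lower. The number of genes called went from 4807 to 4893 after riebeckite asbestos and from 4073 to 4147 after riebeckite fragments. Unknown depth, 3 libraries a group and 1 time point limit what small differences can be shown.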
